A study of Mus musculus with 6 samples.

Results

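On a custom array with 60-base probes against both strands of mouse genes, 92 antisense probes gave a lower signal in every mammary tumor than in either normal mammary gland. They were chosen on these measured signals from the 1748 antisense probes that could be tied to the deposited value table, by 2 conditions: a signal of at least 100 in both normal glands, and every tumor signal below the lower of the 2 normal signals. The 92 probes belonged to 83 of the 445 genes with a tied antisense probe. Because the tumor and normal signals made the choice, the differences of these probes between tumors and normal glands are described and not tested. The rule held for 5.26% of all 1748 antisense probes, and for 15.0% of the 615 that reached 100 in both normal glands. The opposite pattern, every tumor above both normal glands, held for 90 of the same 615 probes (14.6%). The minimum signal in the normal glands keeps out many probes with the opposite pattern. Of the 1656 antisense probes that were not members, at any signal, 378 (22.8%) had every tumor above both normal glands. In 29 of them (1.75%) every tumor was below both.

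The study compared 4 mammary tumors with 2 normal mammary glands, all from GRS/A mice, a strain in which the mouse mammary tumor virus (MMTV) induces mammary tumors. No treatment, transgene or age was given for either group, and the labels do not say that the samples of a group came from separate mice, so p-values measure only the spread between these samples, which may be technical. Each RNA was labelled by random priming with 1 dye and hybridised to 1 array. The extraction protocol in the labels speaks of brain for all samples, while titles and paper name mammary tissue. Epithelial keratin sense probes were well above the floor of 5 in every sample: Krt18 gave 16267, 15531, 17987 and 40295 in tumors 1 to 4 and 2643 and 1591 in normal glands 1 and 2, and Krt14 gave 4258, 5193, 1752 and 2658 against 3692 and 2463. None of the 7 adipocyte markers had a sense probe, so the fat content of the glands was not measured here. In whole tissue, fewer cells of a type and less RNA per cell cannot be told apart.

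Natural antisense transcripts are RNAs read from the strand opposite to a gene, and some of them act on the chromatin, splicing or stability of the sense RNA. Many lack a poly(A) tail, which is why random priming was used to label them. The probes here, named artificial antisense sequence (AFAS) probes, were designed as the complement of annotated mRNA. Such a probe hybridises to labelled product of an RNA from the opposite strand, and it does not show how long that RNA is or where it starts.

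The sequences of 7 members are shown because 5 of them share a short run of bases, and Cd2 and Pdcd6 as members with a large decrease that lack it. All are written 5′ to 3′ as printed on the array, that is, as the complement of the mRNA. Capitals mark the run CCCTGC in the first 5 probes.
Plat: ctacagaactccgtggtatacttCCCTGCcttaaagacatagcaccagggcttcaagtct
Ctsd: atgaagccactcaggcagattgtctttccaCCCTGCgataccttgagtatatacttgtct
Flt3l: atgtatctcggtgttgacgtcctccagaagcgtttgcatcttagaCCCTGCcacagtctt
Crk: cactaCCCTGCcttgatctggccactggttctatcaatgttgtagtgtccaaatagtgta
Ezr: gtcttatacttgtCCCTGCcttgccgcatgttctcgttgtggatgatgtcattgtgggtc
Cd2: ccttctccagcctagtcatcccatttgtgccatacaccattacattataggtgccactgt
Pdcd6: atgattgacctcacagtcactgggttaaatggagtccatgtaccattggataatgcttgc

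The 92 members held 90 distinct sequences, because the probe of Ccl4 and that of Adora3 were each printed at 2 spots under different names. Their GC content had a median of 46.7%, against 45.0% over all antisense probes. Among runs of 6 bases found in at least 5 of the 90 sequences, CCTGCC and CCCTGC, which overlap by 5 bases, were the most concentrated in the members. CCTGCC was in 10 of the 90 (11.1%) and in 21 of the 1728 distinct antisense sequences (1.22%), and CCCTGC was in 8 (8.89%) and 20 (1.16%). Their complements on the other strand, GGCAGG and GCAGGG, were in 2 (2.22%) and 4 (4.44%) of the member sequences, and in 1.85% and 1.62% of all antisense sequences. These runs were picked from the members, so their frequency there is a description only. Of the 33 antisense probes with either run, 12 were members. Among the 31 members with a log2 difference below -2, a split made after values were seen, were 9 of these 12. They included Efnb1, Plat, Ctsd, Flt3l, Fgf7, Mmp11, Crk and Ezr.

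The sense probes had no part in choosing the runs. Of 404 sense probes, 10 held either run, and their median log2 difference, tumor minus normal, was 0.03, against 0.96 for the 394 without. The sense probe with the largest decrease among the 10 was that of Csf3r, the receptor of granulocyte colony-stimulating factor, with 1388, 2514, 233 and 827 in the tumors and 3894 and 4132 in the normal glands. The runs did not mark every probe that carried them. The antisense probes of Pml, a nuclear body protein, and of Pura, a single-strand DNA binding protein, both hold CCCTGC and had log2 differences of 1.03 and 1.85. What the shared bases contribute to the signals was not tested, nor whether probes with these runs, on either strand, bind the same RNA. A probe signal alone does not show that the bound RNA came from the named gene.

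The members differed widely in the size of the decrease. The difference of mean log2 signals, tumor minus normal, ranged from -4.77 for Efnb1 to -0.57 for Lbx1, with a median of -1.63. It was below -1 for 75 members, below -2 for 31 and below -3 for 14. Over all 1748 antisense probes the median was 0.45. At the limit of signal, Hsf1, Tnfaip3 and Plau had lower normal values of 101, 102 and 103, and the nearest probes left out were those of Tgfb2 (95.3), Tsg101 (95.1) and Plau (88.5). At the limit between tumors and normal glands, the highest tumor reached 1.00, 0.98 and 0.97 times the lower normal gland for Fasl, Nfkbia and Plau. Just outside stood Rasa3 (1.00), Ikzf1 (1.01) and Mapk14 (1.02). The highest tumor was over 0.9 times the lower normal gland in 12 members and at most 0.5 times in 11.

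Ligands were among the probes with the largest decreases. The antisense probe of Efnb1, the membrane-bound ephrin-B1, gave 106, 2572, 77.4 and 189.9 in tumors 1 to 4, and 5846 and 8115 in normal glands 1 and 2. Tumor 2 thus lay far above the other tumors, yet below both normal glands, and the ratio of the geometric means was 27.4. The 4 other antisense probes of Efnb1 did not meet the rule. The antisense probe of Ccl4, the chemokine MIP-1β, was present as 2 spots of identical sequence. The first gave 289, 3879, 161 and 272 in the tumors against 7353 and 11179.6, and the second 246, 3772, 137 and 275 against 7342 and 9429. The spots differed by a median of 0.14 on the log2 scale over the 6 arrays and by at most 0.25, against a difference between tumors and normal glands of -4.27 for both.

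Flt3l encodes the ligand of the Flt3 receptor on blood cell progenitors. Its antisense probe gave 128, 675, 35.9 and 141 in the tumors against 1818 and 2142. Fgf7 encodes keratinocyte growth factor, which stroma supplies to epithelium, and its probe gave 548, 5144, 210.1 and 762 against 8673 and 12559.5. In both, tumor 2 was again the highest tumor and tumor 3 the lowest. Smaller decreases were found for Il4, a T helper cytokine, with 64.8, 64.3, 14.4 and 45.0 against 152 and 135, and for Bmp1, the procollagen C-proteinase, with 685, 602, 826 and 652 against 1794 and 2325. In Bmp1 the 4 tumors lay within 1.37 times of each other, one of the tightest tumor groups among the members.

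Bmp8a and Fasl had 2 members each. For Bmp8a, a bone morphogenetic protein, the log2 differences were -1.52 and -1.35. For Fasl, the death ligand of cytotoxic cells, they were -1.95 and -0.81, and the second lay at the limit described above, with 112.58 in tumor 2 and 112.61 in normal gland 2.

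Receptors and surface proteins followed. The probe of Cd2, an adhesion receptor of T cells, gave 522, 4487, 443 and 382 against 8043 and 9754. The probe of Flt1, a receptor of vascular endothelial growth factor, gave 1206, 2950.0, 168 and 293 against 5393 and 7488, so that 2 tumors stood well above the other two. The probe of Drd4, a dopamine receptor, gave 1158, 3213, 810.0 and 874 against 3874 and 4614. Its log2 difference was -1.73. Acvr1b, an activin type I receptor, showed 853, 1331, 1253 and 738 against 1798 and 1822, a log2 difference of -0.84 with groups that did not overlap.

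For Adora3, the A3 adenosine receptor, another tumor was the highest than for Cd2, Flt1 or Drd4. Its duplicated probe gave 48.3, 41.7, 238 and 40.0 in the tumors against 306 and 273 at one spot, and 69.7, 52.3, 218 and 33.1 against 303 and 229 at the other. Tumor 3 was the highest tumor at both spots, which differed by a median of 0.26 on the log2 scale. Il6st, the signalling subunit gp130 shared by the interleukin 6 family, had 2 members of different sequence, with log2 differences of -1.85 and -0.88.

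Of the proteins that relay signals inside the cell, Prkca, protein kinase C alpha, had the second largest decrease. Its probe gave 39.2, 184, 9.84 and 8.51 in the tumors against 665 and 868, so that tumors 3 and 4 stood near the floor. Pdcd6 encodes a calcium-binding protein linked to cell death, and its probe gave 411, 2317, 193 and 281 against 4719 and 5802. Crk, an adaptor protein, gave 3110.0, 4971, 381 and 552 against 7235 and 9729. Here tumors 1 and 2 were high and tumors 3 and 4, which shared 1 slide, were low. Csk, the kinase that restrains Src family kinases, gave 455, 1011, 989.9 and 497 against 1494 and 1536. Gnb2, a G protein beta subunit, had 2 members with log2 differences of -1.26 and -0.86. Map2k1, the kinase MEK1, was lower by 3.23 on the log2 scale in the tumors.

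Proteases formed another group. Plat encodes tissue plasminogen activator, and its strongest probe gave 327, 3779.9, 174 and 269 against 7031 and 10540.0. A second Plat probe was also a member, with 139.7, 247, 100.2 and 194 against 368 and 405. Ctsd encodes the lysosomal protease cathepsin D, and its probes gave 296, 1504, 135 and 137 against 4339 and 5079, and 127, 144, 47.7 and 214 against 255 and 245. Both genes thus had 1 bright member with a large decrease and 1 dim member with a small decrease.

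Other named members included genes that act on transcription, DNA repair or cell stress. Gcm1, a transcription factor of the placenta, gave 48.6, 357, 15.3 and 27.3 against 529.8 and 735. Mycl, a member of the Myc family, gave 40.0, 117, 12.2 and 100.3 against 227 and 187. Pou3f1, a POU domain factor, had 2 members at -1.67 and -0.91, and Ski, a repressor of TGF-beta signalling, was at -0.85. Of the DNA repair genes, Ercc5, an excision nuclease, gave 63.9, 69.9, 13.1 and 36.5 against 134 and 163, while Brca1 gave 258, 199.7, 203 and 167 against 326 and 359.6. Hspa5, the chaperone BiP of the endoplasmic reticulum, gave 59.2, 118, 75.3 and 41.0 against 261 and 207, and Tnfaip3, a brake on NF-κB, gave 38.2, 29.7, 77.8 and 74.0 against 102 and 118. Igfbp6, a binding protein of insulin-like growth factors, was the single member with a tumor at the floor of 5, in tumor 3.

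The most decreased members shared an order of the samples. The rule set no order among the tumors, but it compared them with the lower of the 2 normal glands. That was normal gland 2 in most antisense probes with at least 100 in both, so the rule favored a raised normal gland 2. The split at -2 used the same signals, and the shares are a description only. Tumor 2 was the highest tumor in 57 of the 92 members (62.0%), against 40.5% of the antisense probes with at least 100 in both normal glands and 23.7% of all antisense probes. Tumor 3 was the lowest in 49 members (53.3%), against 45.9% and 33.5%, and normal gland 2 exceeded normal gland 1 in 43 (46.7%), against 27.2% and 22.1%. Of the 31 members below -2, tumor 2 was the highest in 28, and normal gland 2 exceeded normal gland 1 in 25 (80.6%). Of the 61 other members, tumor 2 was the highest in 29 and normal gland 2 exceeded normal gland 1 in 18 (29.5%). The exceptions among the 31 were Mrc1, Eps8 and the more decreased spot of Adora3, with tumor 3 the highest. Median signals of the 31 were 289, 2317, 174 and 269 in tumors 1 to 4, and 4719 and 5802 in normal glands 1 and 2. Tumors 1 and 2 each shared a slide with no other tumor, the slides of the normal glands are not known here, and the part of the array in this order was not tested.

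To see which other probes had this profile, the mean log2 profile of the 10 most decreased members over the 6 arrays was correlated with that of each probe, as a description. All values of a probe come from the same 6 arrays, and the 10 probes are themselves members. The profile is led by the split between tumors and normal glands that the rule required of members and denied to the other antisense probes with at least 100 in both normal glands, so that shares of the sets are not compared. Outside the members, Pearson's r was above 0.9 for 15 of these 523 probes and for 8 of 278 sense probes with such normal signals. The most alike outside the members were an antisense probe of Notch4 (r = 0.98) and the sense probe of Selplg (r = 0.98), a ligand of selectins, followed by a second antisense probe of Rasa3 (r = 0.98), which missed the rule by 3788.15 in tumor 2 against 3787.99 in normal gland 1. The sense probes of Serpine2 and Bmp1 were also alike, both at r = 0.95. Probes with this profile were thus found on both strands.

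Most members were detected on the tumor arrays, while some of the dimmest tumor signals lay near the floor, as for Prkca and Igfbp6. Between 91 and 92 of the 92 were called positive and significantly above background on each tumor array, a mean of 99.7% ± 0.54 (SD, n = 4 tumors), beside 90.1% ± 6.31 of all antisense probes, most of which did not reach 100 in both normal glands. By the stricter flag for signals well above background the share was 96.7% ± 3.87 (SD, n = 4), beside 74.3% ± 10.4. On all 4 tumors 83 of the 92 members passed the stricter flag (90.2%), and 25 of the 31 members with a log2 difference below -2 (80.6%), against 517 of the 523 other antisense probes with at least 100 in both normal glands (98.9%). These flags depend on the tumor signals, which the rule required to be low in members but not in the 523. A lower share in the members, and more so in the 31, thus follows from the choice. No member failed the stricter flag on all tumors, nor did any of the 523. A spot outlier flag on any tumor array was set for 0 members and for 66 of the 523. For the normal glands such flags were not used here. The number of arrays limits the precision of every difference.

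The sense strand of the same genes was not used by the rule, and it was compared with limma on log2 signals over all 404 sense probes. A sense probe was linked to 77 of the 83 genes. The rule had set the direction of the member antisense signals, and sense signals of the member genes went mostly the other way. They were higher in the tumors by mean log2 difference for 65 of the 77 probes, with a median of 1.27, but this was also so for 79.2% of all sense probes, whose median was 0.91. In limma with Benjamini-Hochberg adjustment at 0.05, 14 of the 77 (18.2%) were higher in the tumors, beside 14.4% of all sense probes, and 0 were lower, beside 0.248%. At an unadjusted p of 0.05, 39 of the 77 passed (50.6%), beside 38.4% of all sense probes. In as many, every tumor was above both normal glands, beside 42.6% of all sense probes. The methods' t-test on linear signals passed 17 higher (22.1%, beside 13.1% of all sense probes) and 2 lower (2.60%, beside 2.72%) at the unadjusted threshold. After Benjamini-Hochberg adjustment it passed 0 in either direction, as over all sense probes. The number of calls changed with single arrays: leaving out tumor 1, 2, 3 or 4 gave 1, 9, 23 and 0 calls. The median log2 difference of the 77 probes was then 1.13 to 1.35, and 1.41 and 0.98 without normal gland 1 or 2. These fits also had fewer arrays. With the arrays scaled to the 75th percentile, the median or quantile normalized, 5, 6 and 4 passed as higher, against 20 with the same mean, 18 with trend and robust estimation, 17 with a filter on dim probes and 16 with a floor of 20.

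Pdcd6 and Hspa5 were among these 14 genes. The Pdcd6 sense probe gave 5014, 2071, 3598 and 3608 in the tumors against 385 and 300.2 in the normal glands, a log2 difference of 3.32 ± 0.50 (SE, limma adjusted p = 0.0207, n = 4 and 2). The Hspa5 sense probe gave 15885, 13805, 17291 and 18987 against 3432 and 1655, a difference of 2.78 ± 0.47 (SE, limma adjusted p = 0.0207, n = 4 and 2). In both genes every tumor was above both normal glands on the sense probe. Every tumor was below both on the member antisense probe, as the rule required. By mean log2 difference, 3 of the 4 other antisense probes of Hspa5 were higher in the tumors. These 3 were at the floor of 5 in normal gland 2. Of the 2 other antisense probes of Pdcd6, 0 were higher, and both stood at -0.38 with overlapping groups.

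The most positive sense difference was that of Tsn, a protein that binds single-stranded nucleic acid. Its sense probe was listed at the floor of 5 in both normal glands and at 414, 118, 165 and 246 in the tumors (limma adjusted p = 0.00859), so that no fold is given. Prkca and Cyp1a1, a detoxifying cytochrome P450, were likewise at the floor in both normal glands, with tumor signals of 33.0 to 46.4 and 19.0 to 43.9 (limma adjusted p = 0.0207 and 0.0299). With a floor of 20 neither passed (limma adjusted p = 0.0737 for Prkca and 0.517 for Cyp1a1). Other genes with a called sense probe included Csk (2.29), Map2k1 (2.22), Crk (2.21), Ski (2.14), Tnfaip3 (1.93), Plau (1.92) and Acvr1b (1.81). The values are log2 differences, with limma adjusted p of 0.0299 to 0.0483. Each of these genes passed under only 4 (Map2k1) to 6 (Csk and Ski) of 14 alternative settings. Ctsd and Flt3l did not pass, with log2 differences of 1.81 and 1.56 (limma adjusted p = 0.0513 and 0.0583), although every tumor was above both normal glands.

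On the sense strand, 2 of the 77 genes were lower in every tumor (2.60%, beside 3.47% of all sense probes). The Bmp1 sense probe gave 857, 3501, 739 and 1973 against 6804 and 9243, a log2 difference of -2.46 ± 0.71 (SE, limma adjusted p = 0.0533), and it passed the threshold under 7 of 14 alternative settings. The Il4 sense probe gave 337, 195, 282 and 107 against 644 and 550.2, a difference of -1.50 ± 0.57 (SE, limma adjusted p = 0.100). For these genes the sense probe was lower in the tumors by its values, like the member antisense probe, for which the rule required it. Neither sense difference passed the threshold. The third most negative was Ccr1, a chemokine receptor, at -1.10 ± 0.74 (SE, limma adjusted p = 0.316), with overlapping groups. For Flt1 and Cd2 the sense log2 differences were 0.07 and 0.33, with overlapping groups and limma adjusted p of 0.943 and 0.760, beside antisense differences of -3.30 and -3.48. The Ccl4 sense probe was at or near the floor, with 50.5, 5.34, 7.0 and 5 in the tumors against 18.6 and 5, so that no difference is given for it. The probes of both strands differ in sequence, so their levels are not set against each other.

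The 83 genes had 281 further antisense probes, and every gene had at least 1. The rule had kept out of these every probe with at least 100 in both normal glands that was lower in all tumors. By mean log2 difference 206 of the 281 were higher in the tumors (73.3%), against 71.7% of all antisense probes that were not members. Their median was 0.53, against 0.49. This direction depended on the scaling. The median of the 281 was 0.14 with the arrays scaled to the 75th percentile, 0.26 with the median and -0.01 after quantile normalization. In limma over all antisense probes, 0 of the 281 passed an adjusted p of 0.05 and 48 had an unadjusted p of at most 0.05, beside 14.5% of all antisense probes that were not members, of which 0.483% passed the adjusted p as higher and 0.0% as lower. In 75 of the 281 every tumor was above both normal glands (26.7%, beside 22.8% of all antisense probes that were not members), and in 7 every tumor was below both (2.49%, beside 1.75%). Of the 281, 92 reached 100 in both normal glands.

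Single genes show this spread within a transcript. Plat had 5 antisense probes: the 2 members were lower in every tumor, 2 others were higher in every tumor, with 557, 408, 435 and 672 against 200.1 and 113 for the brighter, and 1 stood at or near the floor on all arrays. Cd2 had 1 member and 4 other probes, of which the brightest gave 3933, 4125, 3632 and 4219 against 1993 and 1337, every tumor above both normal glands. Ctsd had 2 members and 1 probe higher in every tumor, with 119, 106, 53.3 and 193 against 35.9 and 30.8. None of the probes with values given here passed in limma (adjusted p = 0.172, 0.193 and 0.238 for Plat, Cd2 and Ctsd). The dimmer Plat probe, at the floor of 5 in both normal glands, did not pass either (limma adjusted p = 0.0556). Of the 85 members with a sense probe of their gene, 10 (11.8%) had at least 12 bases in a row complementary to it. The share was 10.6% over all antisense probes with a sense probe.

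The genes of the members were spread over many functions. Of 15 lists of gene families, extracellular matrix and proteases had members in 7 of 17 genes on the array (41.2%) and in 9 of 77 probes (11.7%), non-receptor kinases in 9 of 22 genes (40.9%), the TGF-beta and BMP pathway in 6 of 15 (40.0%) and DNA repair and damage in 4 of 12 (33.3%), beside 18.7% of all genes and 5.26% of all probes. The TGF-beta genes with members included the receptors Acvr1b and Tgfbr1, the ligand Tgfb2, the protease Bmp1 and the repressor Ski. Cell cycle genes had members in 1 of 19 (Ccnf), nuclear receptors in 1 of 10 (Nr4a2), small GTPases and their regulators in 0 of 7, and Wnt and cadherin genes in 0 of 2. The other 7 lists lay between 3 of 25 genes, for cytokine and TNF receptors, and 2 of 8, for stress and heat shock. Among probes with at least 100 in both normal glands, members made up 33.3% for DNA repair, 28.1% for matrix and proteases, 25.7% for the kinases and 23.1% for the TGF-beta and BMP pathway, beside 15.0% overall. The lists describe where members fall and no more.

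Of 21 sense probes of cell type markers 18 had a positive log2 difference (85.7%), beside 79.2% of all sense probes. The summed signal of 3 of 10 luminal epithelial markers, Krt18, Krt19 and Erbb3, was 22708, 24594, 25774 and 84936 in tumors 1 to 4 against 5128 and 4064. Krt18 and Erbb3 were the markers that passed the test, at log2 differences of 3.33 and 1.98 (limma adjusted p = 0.0207 and 0.0414). A sum is led by its brightest probes, and probe signals do not rank the genes. The summed signal of the 2 T cell markers on the array, Cd4 and Lck, was 16150, 32219, 8256 and 11015 in tumors 1 to 4 and 7409 and 4225 in the normal glands, most of it from the Cd4 probe. That of 5 of 9 myeloid markers (6 probes) was 14425, 8967, 5074 and 7550 against 5476 and 3978, and that of 4 of 8 endothelial markers was 3723, 5260, 3301 and 5748 against 3971 and 3053. The 2 B cell markers, Pax5 and Blk, summed to 108, 460, 99.6 and 95.5 against 244 and 288, with tumor 2 the highest. Pax5, Blk and the endothelial receptor Tie1 had negative log2 differences, of -0.81, -1.03 and -0.36 (limma adjusted p = 0.491, 0.404 and 0.734), the others positive ones, and no marker of any list stood at the floor on all arrays. Their part in the antisense signals was not tested.

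The number of members depended on the scaling and on single samples. It was 190 with the arrays scaled to the 75th percentile, 159 with the median, 179 after quantile normalization and 87 with the same mean, and these sets held 92, 91, 91 and 82 of the 92 members. For all probes on the array the deposited signals had a median log2 difference of 0.50, and these scalings one of 0.10, 0.23, -0.05 and 0.51. Without tumor 2 the rule gave 163 probes, and without normal gland 2 it gave 165.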

How the data were processed

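Custom Agilent arrays with 1 dye were read with Agilent Feature Extraction, as the submitters' processing notes name it. The authors took the processed signal intensity of each spot, multiplied it by 1 factor per array and put a floor of 5 under dim or non-significant signals. Scaling was found from the files: the deposited intensities of tumors 1 to 4 equal the scanner intensities times 0.957, 0.822, 1.16 and 1.05. Probe names are missing from the deposited table; each of its 2156 entries was given the probe whose 4 scaled tumor signals matched it within rounding. In all, 2111 entries had 1 candidate probe, 41 were placed through neighbouring entries, and 4 were not tied. All 92 members had 1 candidate. Scanner output and slide of the normal glands were not used here. No spot of a named probe was saturated. The share of entries at the floor was 0.881%, 11.7%, 12.0% and 12.9% in tumors 1 to 4, and 24.4% and 31.1% in the normal glands.

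Tumors and normal glands were compared on log2 signals by the moderated two-sided test of limma 3.58.1 (R 4.3.3). Benjamini-Hochberg adjustment was made over the 404 sense and, separately, the 1748 antisense probes. Sense probes were linked to member genes by accession or symbol (61 probes) or by their place in the table (16). Of the member genes named with sense values, Prkca, Map2k1 and Flt1 were linked by place only, so that their gene is inferred. Gene names came from RefSeq accessions (GRCm38.p6) for 440 accessions and from the probe description for 5. No genome build is named in the files, so no positions are given. Tables were made with Python 3.11.15, numpy 2.4.6, pandas 2.3.3 and scipy 1.17.1. The members and gene lists were chosen with earlier results of these data known. Genes named were the 12 members with the largest decrease and no tumor at the floor, genes with 2 members, genes with a called sense probe or 1 of the 3 highest or lowest sense differences, genes the paper names, and probes nearest to the limits; a few such genes are not reported here. The runs of bases, the profile likeness, the split at -2 and the genes Csf3r, Pml, Pura, Notch4, Selplg, Rasa3, Serpine2, Mrc1, Eps8 and Igfbp6 were chosen after values were seen.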

Additional observations from a re-analysis of the deposited data

Results flagged for a closer look

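In 13 of 55 named probes, 1 of the 4 tumors stood apart from the others by Dixon's criterion on the deposited signals. Chance alone meets it in about 1 in 20 groups of normally distributed values. The deposited signals are linear, so that rate need not hold for them. In 11 of the 13 the tumor was tumor 2, as the highest, on antisense probes: the gap to the next tumor, as a share of the range, was 0.955 for Efnb1, 0.966 and 0.962 for the spots of Ccl4, 0.958 for Plat, 0.882 for Ctsd, 0.835 for Flt3l, 0.888 for Fgf7, 0.903 for Gcm1, 0.966 for Cd2, 0.897 for Pdcd6 and 0.855 for Drd4. Tumor 3 stood apart as the highest on 1 spot of Adora3 (0.958) and as the lowest on a probe of Pou3f1 (0.917). Over all 92 members 17.4% met the criterion, against 22.0% of all antisense probes. Without tumor 2 the rule chose 163 probes in place of 92.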

How the results depend on the processing

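The number of antisense probes lower in every tumor, 92 on the deposited signals, was 190, 159 and 179 after scaling to the 75th percentile, to the median and by quantile normalization, 43 with a minimum of 500 in the normal glands, and 97 to 165 with 1 sample left out. Of the sense probes of member genes, 14 were called higher and 0 lower. With 1 sample left out 0 to 23 were higher and 0 to 1 lower. The scalings to the 75th percentile, median and quantiles gave 5, 6 and 4 higher, and these, the same mean, the filter on dim probes and limma with trend and robust estimation each gave 1 lower, Bmp1. The methods' t-test gave 2 lower on linear signals, 28 higher (36.4%, beside 29.2% of all sense probes) and 1 lower (1.30%, beside 0.990%) on log2 signals, and after Benjamini-Hochberg adjustment 0 and 1 higher on these scales. With the replicate number as a block, 0 sense probes were called higher and 0 lower. The deviations of samples with the same number correlated at -0.02 and 0.05, and no label says that the numbers pair mice. The block left 1 residual degree of freedom. Of the other antisense probes of member genes, 0 were called, against 1 higher after scaling to the median or the same mean and 0 to 3 with 1 sample left out. The share of members well above background on the tumor arrays was 96.7% in place of 99.7% for positive and significant signals. Of 236 values of 17 named sense probes under alternatives, 0 reversed, 101 no longer passed and 7 newly passed the threshold. Tumor 2 was the highest tumor in 41 to 53 members under normexp and other scalings, against 57, and tumor 3 the lowest in 36 to 44, against 49. The share of chosen probes with either run of bases was 7.37% to 13.8% under other scalings, against 13.0%. With 1 sample left out this share was 7.27% (without normal gland 2) to 12.4% (without tumor 4), and 7.98% without tumor 2. These last choices were made after seeing the data. The slide as a block was not run, because the slide of neither normal gland is known here. With 4 tumors and 2 normal glands, values of single probes carry wide errors, and intensities near the floor have no order.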

Other observations

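Antisense probes printed more than once give the spread of the measurement within an array. In all, 21 pairs of probes had identical sequences, and in 10 of them every signal was at least 100. Their spots differed by a median of 0.13 on the log2 scale over the 6 arrays, and by at most 0.56, on the probes of Actb. In the other pairs at least 1 signal was below 100, as in many members on the tumor arrays. There the largest difference was 2.19, on a pair of Cdkn2c probes. Both pairs that held a member, Ccl4 and Adora3, held 2.

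Carriers of the runs CCTGCC or CCCTGC that were not members included an antisense probe of Cnr1, a cannabinoid receptor. It gave 1521, 8094, 1154 and 649 in the tumors against 7243 and 9257 in the normal glands, so that 1 tumor exceeded normal gland 1. Among antisense probes with at least 100 in both normal glands, the 26 carriers had a median log2 difference of -1.24 and the 589 others one of -0.01. As the runs were picked from the members, this is a description of the same data.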
